A study of Arabidopsis thaliana with 12 samples.

Results

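Sap is 1 of 10 natural accessions of Arabidopsis thaliana whose flowers were profiled on ATH1 arrays, and its single array was set against the 9 other accessions to find the transcripts in which it stood apart. A probe set was taken where the Sap signal lay outside the range of the 9 others and at least 4-fold from their median, on the scale log2(signal + 16). This held for 16 of 22746 probe sets (0.0703%), of which 7 were higher in Sap (0.0308%) and 9 were lower (0.0396%). These values chose the 16 probe sets, so the differences below are a description and carry no test. Sap has 1 array and no replicate.

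The study profiled floral total RNA in order to find genes that differ between accessions that make saiginols, which are phenylacylated flavonols, and accessions that do not. Sap belonged to the non-producers, together with Stw, Col-0, Ws and Laer (Ler-0 in the study), and C24, Cvi, Da, Rsch and RLD were the producers. All are wild-type lines raised without a treatment, first on agar under long days and then on soil, with flowers taken from individual plants. C24 and Col-0 were hybridized in duplicate and their arrays were averaged on the log2 scale, whereas the other accessions had 1 array each. The ecotype label of the Sap array reads RLD, in conflict with its title, and that of the Stw array reads Sap-0. Arrays go here by their titles, and values without RLD and Stw are given where they matter.

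Accessions are inbred lines descended from plants collected in different places, and they differ in gene content and in regulatory sequence across the genome. A transcript that is present in most accessions and nearly absent in 1 of them, or the reverse, is a familiar result of such comparisons in this species. The probes of the ATH1 array were designed on the sequence of Col-0, so a signal depends both on the amount of transcript and on the match of that accession to the probes. Probe sequences were not used here, and these contributions to a signal cannot be told apart from the arrays.

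The Sap array was close to the other arrays as a whole. Its log2 signals correlated with those of 10 of the 11 other arrays at 0.961 to 0.966 across probe sets, and with the second C24 array at 0.936. The array median was 51.1 in Sap and 46.0 to 51.1 on the others. The second C24 array stood apart, with 112 probe sets at least 4-fold higher and 11 at least 4-fold lower than on the first C24 array, against 5 and 3 between the Col-0 arrays. Without it, 7 probe sets were higher in Sap and 8 lower. The 3′ to 5′ signal ratio was 0.699 in Sap for actin, with 0.468 to 4.62 on the other arrays. For GAPDH it was 0.981 in Sap, with 0.832 to 1.07 on the others, and for ubiquitin 1.37 in Sap, with 0.878 to 1.51 on the others. Of the 15 bacterial control probe sets, none exceeded 9.6 on any array, which serves as a guide to background.

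All 7 probe sets that were higher in Sap are named for a single locus. The farthest from the other accessions was AT5G24480, with a signal of 266.5 in Sap, against 12.3 in Ws, the lowest, a median of 20.5 and 88.3 in Cvi, the highest of the 9. The log2 difference from the median was 2.95, and the SD of the 9 other accessions was 0.57. Sap lay 1.44 log2 units above Cvi, and this was the only higher probe set in which Sap exceeded every other accession by more than 2-fold.

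AT2G43610, a member of the chitinase family of enzymes that cleave the chitin of fungal cell walls, had a signal of 194.4 in Sap, against 5.2 in Cvi, a median of 18.1 and 114.3 in Ws. Its log2 difference was 2.63 (SD of the 9 others 0.85). Col-0 was also high, at 76.6, so that Sap, Ws and Col-0 stood above the remaining 7 accessions, with Sap 0.69 log2 units above Ws.

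An adjacent pair of genes on chromosome 2 was higher in Sap. AT2G32160 encodes a protein of the S-adenosylmethionine-dependent methyltransferase family, and its signal was 136.7 in Sap, against 4.6 in RLD, a median of 10.5 and 101.8 in Laer (log2 difference 2.53, SD of the 9 others 0.84). AT2G32150, which encodes a hydrolase of the haloacid dehalogenase type, had 786.7 in Sap, against 128.2 in RLD, a median of 170.8 and 673.5 in Laer (log2 difference 2.10, SD of the 9 others 0.72). Both genes were nearly as high in Laer as in Sap, with gaps of 0.37 and 0.22 log2 units, and both were lowest in RLD, the accession named in the label of the Sap array. For AT2G32150 the difference dropped below 4-fold when C24, Col-0, Cvi, RLD or Ws was left out, or the first array of C24 or Col-0, with a lowest value of 1.79. It was also just below after median centring, at 1.99.

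AT5G37170, of an O-methyltransferase family, had a signal of 368.6 in Sap, against 24.9 in Rsch, a median of 75.6 and 183.7 in Stw (log2 difference 2.07, SD of the 9 others 0.73). Stw, the array whose ecotype label reads Sap-0, was thus the nearest accession, 0.95 log2 units below Sap.

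The remaining higher probe sets were near background in most accessions. AT1G12180, which encodes a protein related to small heat shock proteins, had a signal of 69.3 in Sap, against 1.1 in Laer, a median of 4.3 and 29.1 in Ws (log2 difference 2.07, SD of the 9 others 0.53). Col-0 was at 25.9, and the other 7 accessions did not exceed 6.6, below the highest bacterial control. AT5G48350 had 57.0 in Sap, against 1.0 in Cvi, a median of 1.4 and 30.7 in Laer (log2 difference 2.07, SD of the 9 others 0.47). Sap and Laer were the only accessions above background for this probe set, since the other 8 did not exceed 2.3. Its difference was 1.99 after median centring, and a filter on the dimmest 25% of probe sets removed it.

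**Figure D1:**
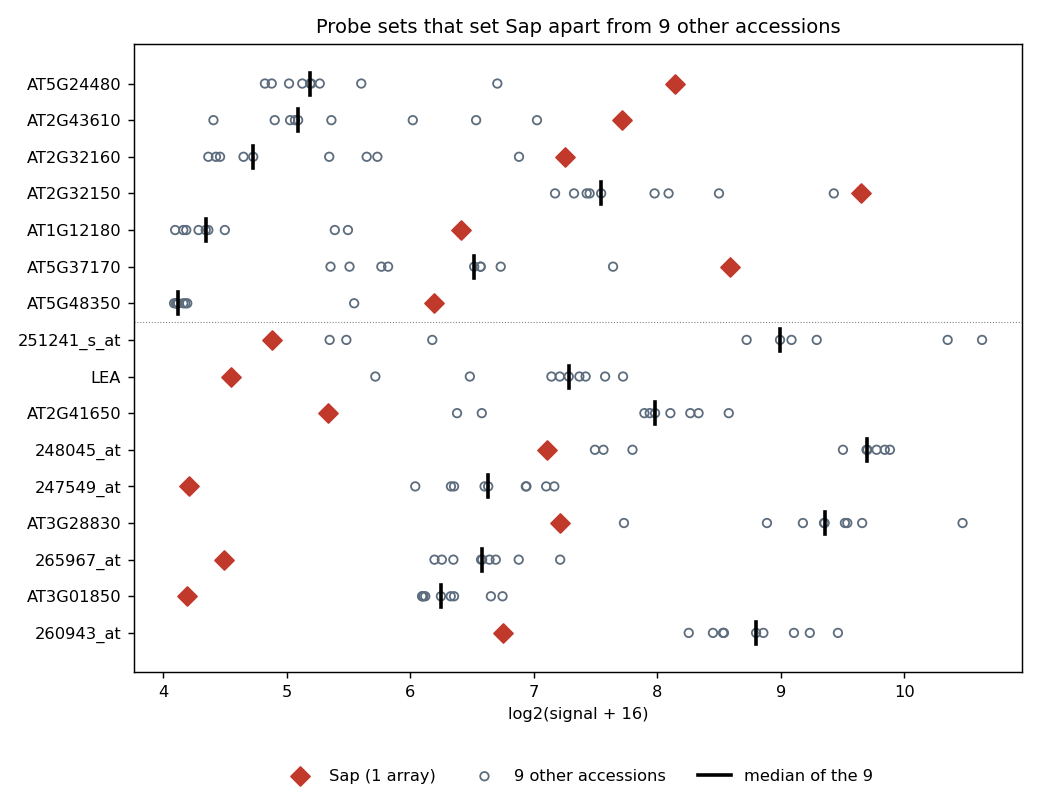
Signals of the 16 probe sets on the log2(signal + 16) scale, with Sap as a red diamond, the 9 other accessions as open circles and their median as a bar. The 7 probe sets higher in Sap are above the dotted line and the 9 lower ones below it, and in 7 of the 16 the gap from Sap to the nearest accession is at least 2-fold.

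Of the 9 probe sets that were lower in Sap, 4 (44.4%) are named for a single locus, against 59.1% of all probe sets. Another 1 lists several genes and 4 carry no single locus name in the tables used. The largest difference of all was that of 251241_s_at, which lists several genes and is given by its identifier alone. Its signal was 13.5 in Sap, against 24.7 in Cvi, a median of 493.7 and 1568.1 in RLD (log2 difference -4.11, SD of the 9 others 2.03). Da, at 28.7, and C24, at 56.4, were low as well, and the remaining 6 accessions had 406.6 or more, so the 10 accessions formed a low and a high set with Sap at the bottom of the low one.

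The same 4 accessions were low in the 3′ actin control probe sets of the array. One of these read 217.5 in Sap, 136.6 in Cvi, 193.1 in Da and 301.2 and 193.0 on the C24 arrays, and 1215.7 to 1376.5 on all other arrays. The second read 312.5 in Sap, 308.5 in Cvi, 327.7 in Da and 400.2 and 382.1 on the C24 arrays, and 1991.3 to 2396.7 on all others. Of the actin probe sets of the middle region, one did not separate these accessions, with 621.3 in Sap and 624.1 to 975.5 on the other arrays. The second middle probe set read 950.6 in Sap, 1338.2 in Cvi, 1004.4 in Da and 1436.4 and 1176.2 on the C24 arrays, against 1332.1 in Laer and 1846.0 or more on the rest, so it overlapped only through Laer. One ubiquitin control of the 3′ end read 1113.1 in Sap and 1849.2 to 2271.5 on the others, whereas a second 3′ ubiquitin control read 2445.7 in Sap and 2353.9 to 2951.3 on the others. The part of these differences in the result for 251241_s_at was not tested.

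LEA (AT2G21490) encodes a dehydrin, a protein of the late embryogenesis abundant class that accumulates in drying tissue and seeds. Its signal was 7.4 in Sap, against 36.6 in Cvi, a median of 139.7 and 195.2 in RLD (log2 difference -2.73, SD of the 9 others 0.63). The Sap value lay within the range of the bacterial controls and 1.17 log2 units below Cvi. The Col-0 arrays differed by 1.12 log2 units for this gene, with 84.3 and 202.7, and both were far above Sap.

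AT2G41650 had a signal of 24.4 in Sap, against 67.2 in C24, a median of 236.8 and 366.3 in Ws (log2 difference -2.65, SD of the 9 others 0.77). RLD was also low, at 79.6. The C24 arrays read 123.4 and 33.7, and their difference of 1.49 log2 units was the largest between duplicates among the 16 probe sets.

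AT3G01850, which encodes the cytosolic form of ribulose-phosphate 3-epimerase, an enzyme of the pentose phosphate pathway, had 2.3 in Sap, against 52.4 in Rsch, a median of 60 and 91.4 in Stw (log2 difference -2.05, SD of the 9 others 0.25). The other 9 accessions were alike for this gene and Sap alone was at background, 1.90 log2 units below the nearest. The difference stayed between -2.09 and -1.99 when any accession or duplicate array was left out, and fell short of 4-fold without C24, RLD, Stw or Ws. Without both RLD and Stw it was -1.93.

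AT3G28830 had 132.1 in Sap, against 196.3 in Cvi, a median of 638.5 and 1404.0 in Da (log2 difference -2.14, SD of the 9 others 0.73). Cvi was the only other accession at least 2-fold below the median.

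Among the probe sets without a locus name, 247549_at had 2.5 in Sap, against 49.8 in Da, a median of 83.1 and 127.6 in Laer (log2 difference -2.42, SD of the 9 others 0.39). For 265967_at the signal was 6.5 in Sap, against 57.3 in Stw, a median of 79.8 and 132.4 in Laer (log2 difference -2.09, SD of the 9 others 0.32). Both were at background in Sap and in no other accession.

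The probe set 260943_at had 91.9 in Sap, against 289.4 in Cvi, a median of 429.7 and 689.5 in Rsch (log2 difference -2.05, SD of the 9 others 0.40). It was well above background in Sap and 1.5 log2 units below the nearest accession, but its difference fell short of 4-fold without C24, Da, Laer, Rsch, Stw or the second C24 array, with a value nearest to 0 of -1.79. The probe set 248045_at had 121.7 in Sap, against 164.4 in Stw, a median of 812.2 and 928.6 in Laer (log2 difference -2.59, SD of the 9 others 1.07). C24 and Ws were low as well, at 173.2 and 206.7, and the remaining 6 accessions had 686.4 or more on every array, so Sap was the lowest of 4 low accessions.

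Sap was therefore alone in only some of the 16 probe sets. In 4 of them, 247549_at, 265967_at, AT3G01850 and 260943_at, no other accession was 2-fold from the median in the same direction, and all 4 were lower in Sap. The gap between Sap and the nearest accession was at least 2-fold in 7, of which 1 was higher and 6 lower, and it was 4-fold in 0. Duplicate arrays of C24 differed over the 16 probe sets by a median of 0.49 log2 units, with 3 probe sets over 1, and those of Col-0 by a median of 0.17, with 1 over 1.

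The threshold cut through a continuous range of values. Just inside it were AT5G37170 and AT5G48350 at 2.07, and AT3G01850 and 260943_at at -2.05. Just outside it on the higher side was THI2.2, which encodes a thionin, a small antimicrobial peptide. Its signal was 146.0 in Sap, against 3.1 in Da, a median of 26.5 and 76.0 in Cvi (log2 difference 1.93). The difference reached 2.11 without RLD and Stw and 2.02 without C24, Cvi, Stw or Ws, which is past 4-fold, whereas it was 1.50 without the second Col-0 array. Next came AT5G56370 at 1.86, with 48.0 in Sap, against 0.7 in Ws, a median of 1.6 and 26.2 in C24. CLE41, which encodes a peptide ligand that acts in vascular development, was at 1.67, with 239.9 in Sap, against 47.4 in Da, a median of 64.4 and 215.3 in Cvi, and here Sap and Cvi were close together.

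On the lower side, AT5G61720 was just outside at -1.90, with 73.8 in Sap, against 187.4 in Cvi, a median of 318.6 and 921.5 in Da. DI21, a gene named for its induction by drought, was at -1.89, with 23.0 in Sap, against 24.9 in Ws, a median of 128.8 and 252.7 in Da. Sap and Ws were nearly equal for DI21. CHIL, which encodes the chalcone isomerase-like protein that promotes flavonoid synthesis, was at -1.78, with 67.2 in Sap, against 132.4 in Rsch, a median of 270.1 and 509.6 in Ws. It reached -2.01 without the first C24 array and -2.0 without Da, Laer, RLD or Rsch.

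Some probe sets just outside the threshold varied little among the other accessions. AT3G42820 had 118.7 in Sap, against 24.3 in Da, a median of 28.0 and 32.0 in Cvi, with a log2 difference of 1.61 and an SD of the 9 others of only 0.10. AT2G03200, of the aspartyl protease family, had 46.2 in Sap, against 138.3 in Cvi, a median of 191.9 and 264.9 in RLD (log2 difference -1.74, SD of the 9 others 0.26). AT5G63990, of the inositol monophosphatase family, had 6.5 in Sap, against 36.6 in RLD, a median of 53.0 and 90.6 in C24 (log2 difference -1.62, SD of the 9 others 0.29). In each of these 3 genes the 9 other accessions lay close together and Sap lay more than 2-fold beyond the nearest of them.

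A further 13 probe sets were at least 4-fold from the median in Sap but inside the range of the others, 3 above it and 10 below. AT2G25450, a dioxygenase of the family that hydroxylates glucosinolates, had 308.7 in Sap, against 3.1 in Da, a median of 30.5 and 397.6 in RLD (log2 difference 2.80). CSA1, an immune receptor of the NLR class, had 93.8 in Sap, against 2.0 in Laer, a median of 6.8 and 105.2 in C24 (log2 difference 2.27, but 1.22 without RLD and Stw, 1.85 without Cvi and 1.74 without Laer, RLD, Rsch or Stw). Both genes fell into high and low accessions, with Sap among the high ones together with Col-0 and Ws. AT2G22960, the flavonol acyltransferase gene FPT2 on which the study centred, had 28.9 in Sap, against 17.6 in Stw, a median of 197.5 and 307.9 in RLD (log2 difference -2.25). Sap, Stw, Col-0 and Ws were all at 31.2 or below, and Laer, the remaining non-producer, was at 89.8. The difference fell short of 4-fold without C24, Cvi, RLD or Rsch, at -1.74, and without Da, at -1.82. By the allele of this gene, the study grouped Sap-0 with Ler-0 and Stw-0 with Col-0. The signal of the Sap array lay nearer to those of Stw and Col-0 than to that of Laer.

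The number of probe sets that set Sap apart lay within the range found for the other accessions. When each accession was set in turn against the 9 others, the count was 16 for Sap and 5 to 23 for the others, with a median of 20. RLD had the fewest, Cvi and Laer the most, and 5 of the 9 others had more than Sap. Sap had 7 higher and 9 lower, whereas Ws had 16 higher and 6 lower and Stw had 2 higher and 12 lower. C24 had 9 higher and 11 lower with its arrays averaged. Its first array alone gave 7 and 18 and its second 99 and 24, which shows how far a single array can move such a count. After median centring of each array, 5 probe sets were higher and 12 lower in Sap, and after quantile normalization 7 and 10. In direct pairs of arrays, Sap differed by at least 4-fold in 49 probe sets from RLD, the fewest, and in 52 from Stw and from Rsch. The count was 69 for Laer and 179 for the second C24 array, which were the highest.

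**Figure D2:**
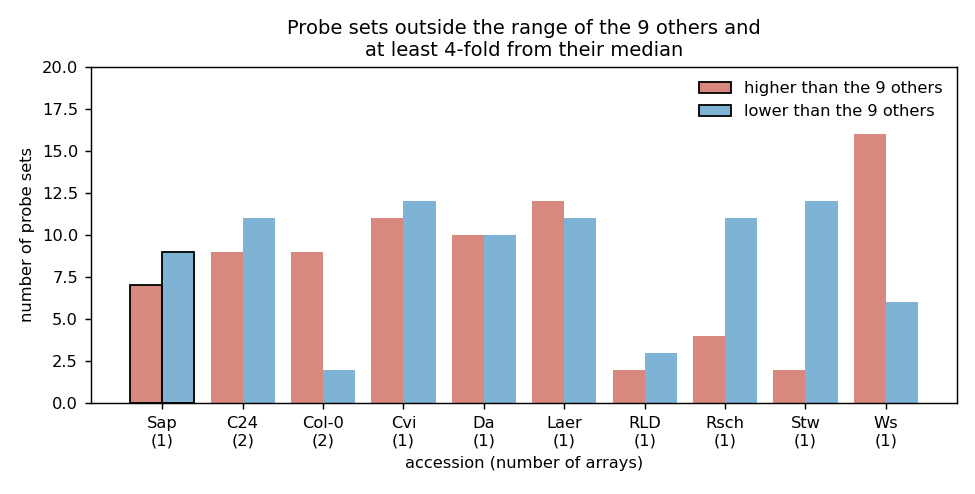
Number of probe sets in which each accession lay outside the range of the 9 others and at least 4-fold from their median, split into higher (red) and lower (blue), with Sap at the left and outlined. Sap, with 7 higher and 9 lower, falls within the span of the other accessions.

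Few measured neighbours of the 11 named genes differed along with them. In the order of protein-coding loci, 5 loci were taken on each side of each, and 58 neighbours had a probe set named for them alone. Loci near both AT2G32150 and AT2G32160 are counted once for each, and the remaining places were not measured. Only 3 of these differed at least 2-fold in the same direction, against a background of 0.400% of all probe sets at least 2-fold above the median in Sap and 0.686% at least 2-fold below. They were AT2G32150 and AT2G32160, each the neighbour of the other and both chosen by the rule, and AT3G28840, which lies next to AT3G28830. Neighbours of 1 gene share their region and are not independent.

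On one side of the pair AT2G32150 and AT2G32160, AT2G32170 differed by 0.34 log2 units, with 147.0 in Sap and 105.2 to 200.5 in the others. On the other side AT2G32140 differed by -0.24, also inside the range of the other accessions. It read 1.8 in Sap and 1.3 to 10.6 in the others, which is about background and leaves little to compare. The chitinase gene AT2G43610 lies in a run of related genes. CHI (AT2G43570, 25.9 in Sap), AT2G43590 (8.0) and AT2G43620 (50.7) differed by -0.21, -0.91 and 0.16, all inside the range. AT2G43580 and AT2G43600 differed by -0.06 and 0.00, also inside it. Both were at background in all accessions, at 2.1 or below, which leaves little to compare. On the lower side, AT3G28840 had 49.7 in Sap, against 78.3 in Cvi, a median of 194.7 and 614.8 in Da (log2 difference -1.68). On the other side of AT3G28830, AT3G28790 differed by -0.60 and AT3G28780 by -0.49, both also highest in Da. Beyond AT3G28840, AT3G28850 differed by -0.19, with 29.5 in Sap and 30.9 to 52.5 in the others.

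**Figure D3:**
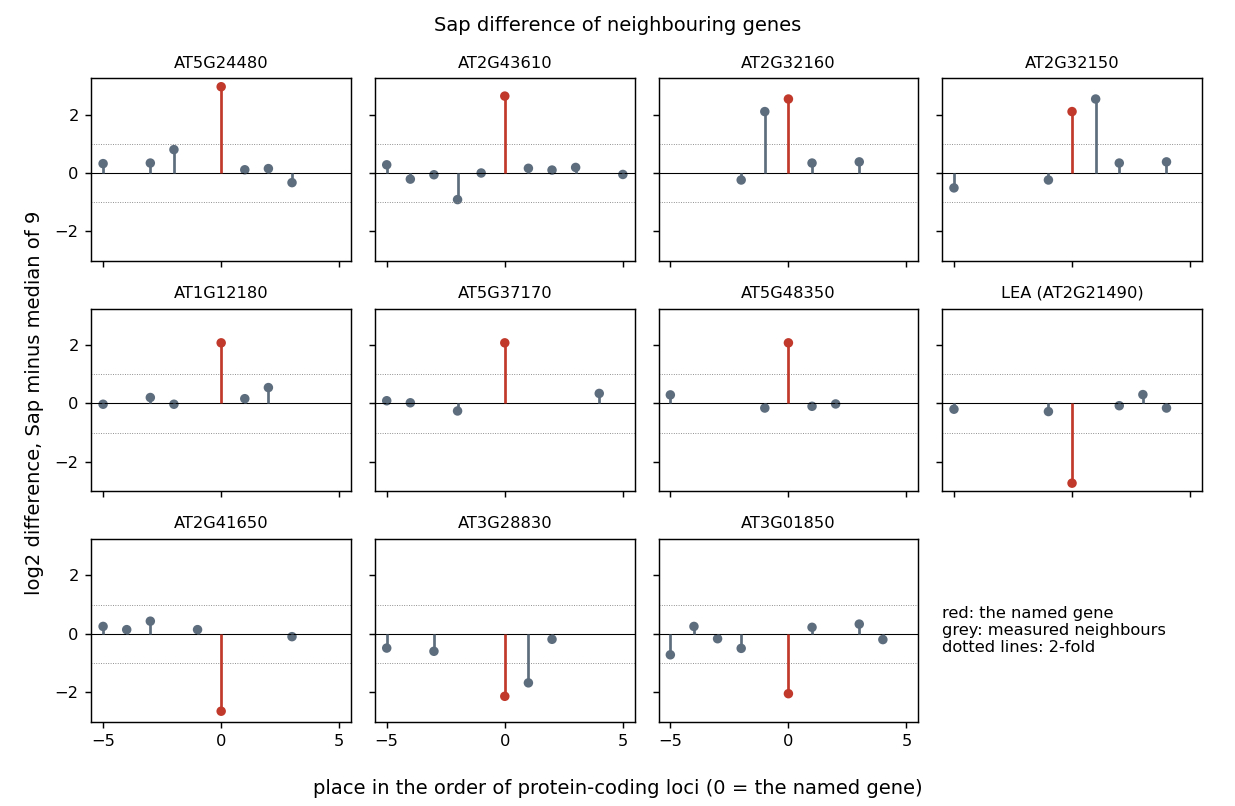
Log2 difference of Sap from the median of the 9 others for each of the 11 named genes (red, at 0) and its measured neighbours among the 5 protein-coding loci on each side (grey), with dotted lines at 2-fold. No measured neighbour lies beyond 2-fold except in AT2G32150 with AT2G32160 and in AT3G28830 with AT3G28840, and many places were not measured.

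Flowers hold several tissues, and marker genes of these were compared as lists. Genes of the carpel (SPT, 97.6), the nectary (SWEET9, 278.9), the tapetum (SHT, 246.2) and pollen (TUA1, 93.5) were all above the bacterial controls in Sap. Of 23 loci listed for floral organ identity and meristems, only 4 had a probe set named for them alone in the tables used. The 9 measured pollen genes summed to 754 in Sap, against 781 in Cvi, a median of 1130 and 2450 in Da. Sap thus had the lowest sum of the 10 accessions by a small margin. AT5G45880 made up 556.9 of the Sap sum, and for this gene Cvi (526.1) and Ws (555.9) were lower than Sap. All 9 were below the median of the other accessions, and 4 were below their whole range, a position that 9.42% of all probe sets took in Sap. Of these 4, ANX1 and ACT12 had gaps to the nearest accession of only -0.04 and -0.05 log2 units. The median log2 difference of the list was -0.43, or -0.13 with a pseudocount of 64, against 0.03 over all probe sets. The count was also 9 of 9 after quantile normalization and median centring. In a bulk sample, fewer cells of a type and less RNA per cell cannot be told apart. TUA1, a pollen tubulin gene, had 93.5 in Sap, against 125.1 in Stw, a median of 166.5 and 237.7 in Da. MGH3, a histone of the male germ line, had 24.5 in Sap, against 29.1 in Col-0, a median of 43.4 and 78.3 in Da. None of the 9 was 2-fold below the median, and ANX1 and BZIP34 were at background in Sap, at 0.8 and 1.0.

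AT3G28830, AT3G28840 and AT5G61720 followed a like order, lowest in Sap, next in Cvi and highest in Da. They were chosen after their values were seen, from probe sets in which Sap lay below all other accessions. The lowest place of Sap in these genes was therefore fixed by the choice and adds nothing to the pollen sum. The log2 differences of Sap were -2.14, -1.68 and -1.90 for these, larger than the -0.74 of TUA1, the largest on the pollen list. The part of the pollen level in these differences was not tested.

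**Figure D4:**
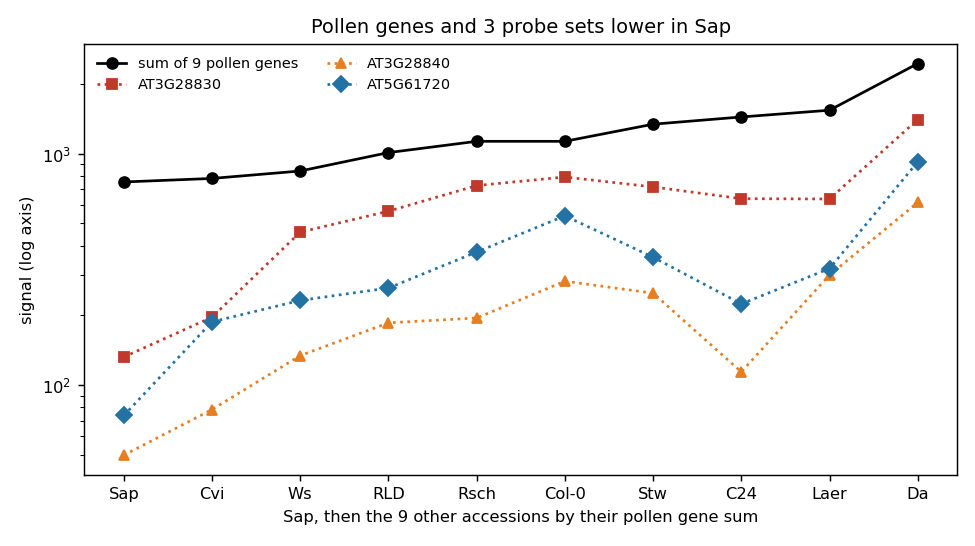
Sum of the signals of 9 pollen genes (black) and the signals of AT3G28830, AT3G28840 and AT5G61720 (colours) on a logarithmic axis, with Sap at the left and the 9 other accessions ordered by their pollen sum. Sap has the lowest value of all 4 measures and Da the highest. For AT3G28830, AT3G28840 and AT5G61720 the lowest place of Sap was fixed by the choice of genes, made after their values were seen.

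The tapetum and petal lists were low in Sap as well, though not the lowest of the 10 accessions. The 5 tapetum and pollen wall genes summed to 1120 in Sap, against 1060 in Cvi, a median of 1660 and 2030 in Laer, with a median log2 difference of -0.64. SHT, a spermidine hydroxycinnamoyltransferase of the tapetum, had 246.2 in Sap, against 220.0 in Cvi, a median of 487.9 and 790.0 in C24, whereas AMS, a tapetum transcription factor, had 107.9 in Sap, against 31.3 in Da, a median of 53.5 and 183.8 in C24. The 3 petal, nectary and scent genes summed to 448 in Sap, against 418 in Col-0, a median of 680 and 1080 in C24, with a median log2 difference of -0.86. Of these BSMT1, which makes the volatile methyl benzoate, had 84.6 in Sap, against 72.8 in Cvi, a median of 173.6 and 305.2 in Laer.

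The 6 carpel and style genes summed to 511 in Sap, against 380 in C24, a median of 420 and 509 in Da, so that Sap was the highest of the 10 by a small margin. NGA2, a style regulator, had 54.7 in Sap, against 32.5 in RLD, a median of 45.0 and 47.3 in Cvi, and was the only one above the range, where 15.4% of all probe sets lay in Sap. The 9 photosynthesis genes summed to 15600 in Sap, against 12800 in Col-0, a median of 14300 and 17300 in RLD, and the 2 seed genes to 12.7 in Sap, against 5.9 in Ws, a median of 21.9 and 37.7 in Da. CLV3, a stem cell peptide gene of the shoot and floral meristem, read 13.2 in Sap, against 0.9 in Col-0, a median of 1.8 and 3.4 in C24, which puts it above the bacterial controls in Sap alone.

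Across 21 lists of genes of floral tissues, defence, stress and secondary metabolism, 484 loci were listed and 91 had a probe set named for them alone. None of the 16 probe sets belonged to a list. At least 2-fold above the median in Sap were 4 of the 91 genes, against 0.400% of all probe sets, and at least 2-fold below were 3, against 0.686%. The lists were made with earlier results of these data known, and they include FPT2. The brightest probe set stood for each locus, whereas the background holds all probe sets, dim ones included. These shares are therefore not alike, and whether the lists hold an excess cannot be read from them. List medians lay between -0.86 for the petal, nectary and scent genes and 0.32 for the genes of cold, drought and abscisic acid, among lists with at least 3 measured genes. Of the circadian clock list 0 genes had a probe set named for them alone. The tables used left 8807 probe sets without a single locus name, so a gene counted as unmeasured may still have a probe set.

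The genes at least 2-fold above were AT2G25450, CSA1, COR15A and LHCB4.2. LHCB4.2, an antenna protein of photosystem II, had 1348.1 in Sap, against 352.2 in C24, a median of 596.4 and 926.2 in Col-0 (log2 difference 1.16), and was above all others. LHCB4.1, its close relative, had 2372.7 in Sap, against 1893.4 in Stw, a median of 2228.2 and 2676.4 in Laer (log2 difference 0.09), so the higher signal was not shared within the pair. COR15A, a chloroplast protein made in the cold, had 3426.7 in Sap, against 644.9 in Laer, a median of 1043.8 and 4259.7 in Stw (log2 difference 1.70), and the neighbouring COR15B had 1143.7 in Sap, against 410.8 in C24, a median of 880.0 and 1401.4 in Col-0. COR15A was thus high in Sap, Stw and Col-0, where it read 2287.2, and next highest in Rsch, at 1953.1.

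The genes at least 2-fold below were AT2G22960, CHIL and SAG29. SAG29, a sugar transporter gene named for its rise in senescence, had 61.9 in Sap, against 75.4 in Col-0, a median of 143.8 and 252.2 in Cvi (log2 difference -1.04). CHIL was the only one of 9 measured flavonoid genes at least 2-fold from the median. Its companions included UGT78D2, the flavonol 3-O-glucosyltransferase, with 132.5 in Sap, against 113.0 in Da, a median of 133.1 and 158.6 in Stw, and DFR, which leads to anthocyanins, with 42.9 in Sap, against 17.9 in Col-0, a median of 28.1 and 82.5 in Laer. The median of the flavonoid list was -0.07.

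GI, which links the circadian clock to flowering, had 289.4 in Sap, against 107.8 in RLD, a median of 164.5 and 222.8 in C24 (log2 difference 0.76), and was above all other accessions. HCT, an enzyme of lignin precursor synthesis, had 172.4 in Sap, against 195.5 in Ws, a median of 226.3 and 288.6 in C24 (log2 difference -0.36), and was below all others. The 7 heat shock genes had a median of -0.17 and the 4 of jasmonate and ethylene defence 0.16, with all of them less than 2-fold from the median. Of 923 probe sets for loci annotated as pseudogenes, 5 were at least 2-fold above, against 0.400% of all probe sets. Below by at least 2-fold was 1, against 0.686% of all probe sets. None was among the 16, but only 11 of these are named for a single locus, too few to read a lack from.

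**Figure D5:**
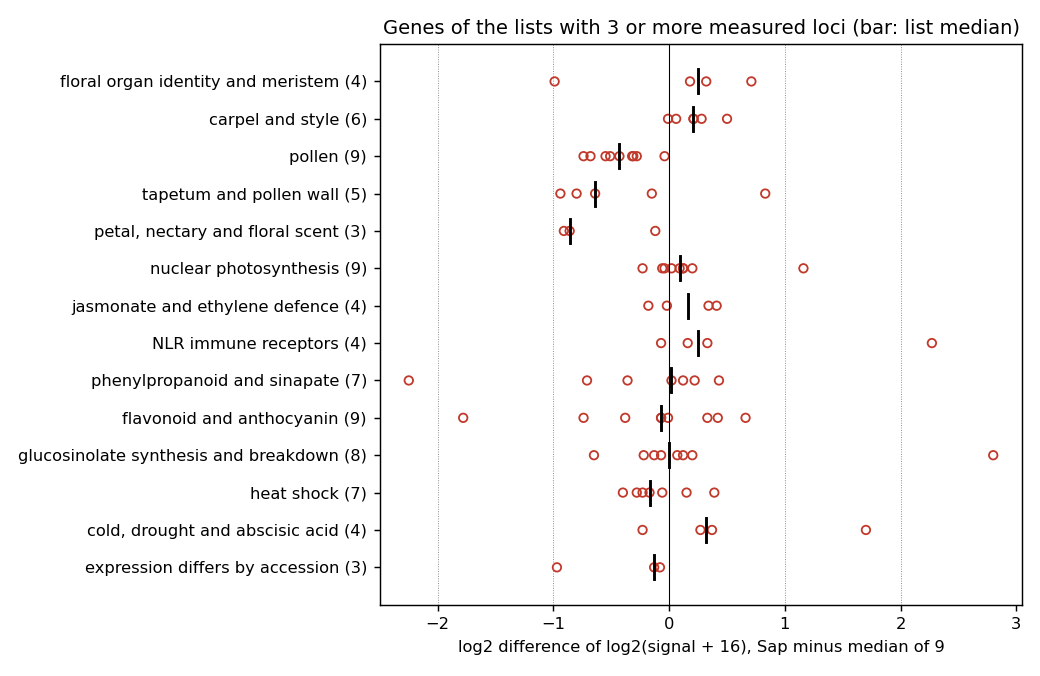
Log2 difference of Sap from the median of the 9 other accessions for each gene (circles) of the lists with at least 3 measured genes, with the number measured in brackets and the list median as a bar. Most genes lie within 2-fold (inner dotted lines), and the pollen genes all lie below 0.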

How the data were processed

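Flower RNA of Sap and 9 other accessions was hybridized to 12 ATH1 arrays, and the arrays of C24 and Col-0 are described as duplicate hybridizations. The deposited values are linear intensities, 1 per probe set, which the authors had scaled to a common level. The mean without the highest and lowest 2% is 100.01 on every array. Which software summarized the probe sets is not given in the sources used here. Detection calls were left aside. After 64 control probe sets were set aside, 22746 of 22810 were compared as log2(signal + 16), a scale that understates differences of dim probe sets. No p-values were computed. Precision is limited by the number of arrays, with 1 for Sap.

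Accession signals for C24 and Col-0 are log2 means converted back. Names came from the gene table of the platform, updated through RefSeq (TAIR 10.1, used for names and gene order only). This gave 13436 probe sets 1 locus and 503 several, and left 8807 with no single locus. Genes named are all members, up to 3 per list with the largest difference, FPT2 and probe sets near the threshold. Neighbours, AT3G42820, AT2G03200, AT5G63990, LHCB4.1, COR15B, UGT78D2, HCT, AT5G45880, ACT12, ANX1 and BZIP34 and the 3 genes plotted with the pollen sum were chosen after their values were seen. The members and lists were chosen with earlier results of these data known. The selection was tested on simulated data, with uniform noise and changes planted in bright probe sets only. The planted changes were larger than those of nearly all members, so dim probe sets and smaller differences were not covered. Work used Python 3.11.15, numpy 2.4.6, pandas 2.3.3 and matplotlib 3.10.9. Alternatives covered pseudocount, scaling, threshold, a filter on dim probe sets, shared probes and omission of arrays.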

Additional observations from a re-analysis of the deposited data

Results flagged for a closer look

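In 7 of 70 named probe sets, 1 of the 9 other accessions lay far from the remaining 8 by Dixon's criterion, taken on the log2(signal + 16) scale. Chance puts the rate near 1 in 20 only for probe sets not chosen for their values. The 70 were chosen partly for large differences, and QQS comes from a list of genes whose expression differs by accession. That rate is therefore no yardstick here. Among the probe sets higher in Sap, AT5G24480 stood out in Cvi, at 88.3 against 12.3 to 32.6 (gap over range 0.585), with 266.5 in Sap. AT5G48350 stood out in Laer, at 30.7 against 1.0 to 2.3 (0.927), with 57.0 in Sap. The other 5 are genes of the lists. UFO was highest in Laer, at 8.9 against 2.4 to 3.4 (0.825), with 7.3 in Sap, all below the highest bacterial control of 9.6. NGA1 was high in Col-0, at 85.3 against 44.5 to 61.6 (0.518), with 75.1 in Sap. AT3G44630, an NLR gene, was high in Col-0, at 77.4 against 4.1 to 21.6 (0.592), with 19.5 in Sap. AT2G29500, a small heat shock protein gene, was high in Ws, at 101.5 against 4.3 to 16.4 (0.734), with 5.5 in Sap. QQS was high in Cvi, at 1249.8 against 6.4 to 71.7 (0.662), with 14.3 in Sap.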

How the results depend on the processing

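The number of probe sets that set Sap apart, 7 higher and 9 lower, depended most on the pseudocount and the threshold. It was 87 higher and 138 lower with a pseudocount of 1, which kept all 16, and 0 and 2 with a pseudocount of 64. A 3-fold threshold gave 16 higher and 20 lower, an 8-fold threshold 0 and 1, and 4-fold from the nearest accession 0 and 0. With each accession or duplicate array left out in turn, 6 to 8 were higher and 7 to 12 lower. Without RLD and Stw 10 were higher and 9 lower, of which 7 and 8 were among the 16. Of 1456 log2 differences of 70 named probe sets recomputed, 1418 moved by less than the SD of the 9 accessions, 38 moved by more. In 3 probe sets, AGL62, QQS and WRKY53, 9 values changed sign, all from at most 0.09 to at most 0.04 in size. Of the 38, 36 came from the pseudocounts (20 with 1, 16 with 64), and the other 2 were CSA1, at 1.30 with the 11 arrays taken singly and 1.22 without RLD and Stw. Of 56 list medians recomputed, 6 moved, all with a pseudocount. The pollen median was -0.13 and that of the carpel list 0.13 with 64. The floral organ identity median was 0.73 with 1 and 0.09 with 64, and the NLR and heat shock medians were 0.71 and -0.52 with 1. Counts of all 9 other accessions also moved with the pseudocount, and each duplicate array alone, an alternative chosen after seeing the data, gave 123 probe sets for the second C24 array, against 25 for the first. No paired analysis was possible because no test was made and Sap has 1 array. Dim probe sets limit the result, since 4 of the 9 lower ones were under a signal of 10 in Sap.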
